A study of Mus musculus with 6 samples.

Results

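The replication-dependent histone genes were followed in polyadenylated RNA of the mouse forebrain. They were taken as every row of the count tables whose symbol starts with Hist1h, Hist2h, Hist3h or Hist4h, which gave 68 of 23282 rows, and were grouped by the class in the symbol into 6 genes of H1, 18 of H2A, 19 of H2B, 12 of H3 and 13 of H4. Adult male C57BL/6J mice stood for 1 h on a small platform, either surrounded by water (water avoidance stress, WAS) or in a container without water (control), and were killed directly afterwards. RNA came from 1 hemisphere of the forebrain without olfactory bulb and cerebellum, with 3 libraries labelled WAS and 3 labelled control, 1 for each mouse. Libraries were made with QuantSeq 3′ mRNA-Seq, in which an oligo-dT primer starts the copy at stretches of A, and reads of 75 bases then come from the RNA just before that stretch.

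Inside the deposited tables the count column is headed WC in the 3 libraries labelled WAS and WS in the 3 labelled control, headings that are not explained in the sources used here. The study's own list of changed genes gives directions opposite to those from the labels. The labels were used for grouping, log2 ratios are WAS over control, and every direction turns around if the labels were exchanged. Total counts lay between 9248520 and 10502029 per library. Defining neuronal, astrocytic and oligodendrocytic genes were abundant in every library. Of the genes listed for the removed cerebellum and olfactory bulb, Gabra6 had at most 1 count and Omp at most 5. By contrast, Cbln3 had 6 to 10, Eomes 4 to 24, Th 13 to 146, Pax6 103 to 125, Pcp2 191 to 252 and Calb1 772 to 1116 counts per library.

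Histones are the proteins around which DNA is wound. A pair each of H2A, H2B, H3 and H4 molecules forms the nucleosome core, and H1 binds the linker DNA between nucleosomes. The genes of the Hist clusters supply histones during DNA synthesis, and their mRNAs are unusual in that they normally carry no poly(A) tail. The RNA ends shortly after a conserved stem-loop, which is bound by the stem-loop binding protein Slbp and cut in a reaction that needs the U7 small nuclear RNP. In cells that have left the cell cycle some of these genes are also known to give polyadenylated mRNA from a site further downstream.

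The stem-loop is the element that sets these genes apart, so the variants found are shown first. In the transcripts of GENCODE M21, an annotation of the mouse genome build GRCm38 (mm10, the build in the submitters' processing notes), all 68 symbols matched and 54 genes had an annotated 3′ untranslated region. The letters GGNNNTTTTNANNNCC were searched on the transcript strand within 100 bases after the stop codon. They were found in 43 of the 54, against 53 of 20952 protein-coding genes with such a region (0.253%), a count that includes the histone genes. The 54 include Hist1h2af and Hist1h2ah, whose annotated regions of 1 and 2 bases cannot hold the 16 bases of the element. Only the longest coding model of each gene was searched. The element began 21 to 58 bases after the stop codon (median 31). Its variants are given in DNA letters with the whole element in capitals.

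Variant in 25 genes (3 H1, 10 H2A, 7 H2B, 5 H3): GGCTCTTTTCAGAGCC

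Variant in 7 genes, all H4: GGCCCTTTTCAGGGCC

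Variant in 6 genes (1 H1, 2 H2B, 3 H3): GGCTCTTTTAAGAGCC

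The remaining 5 genes held 3 other variants, in 2 H4 genes each (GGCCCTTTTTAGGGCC and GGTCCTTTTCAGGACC) and in Hist2h2ac (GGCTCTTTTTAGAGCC). No gene of H4 carried a variant seen in another class. In the RefSeq gene table of the same build, 41 of the 43 genes ended 4 to 8 bases after the element, where the processed RNA is cut. Their GENCODE transcripts were often longer, with 22 of the 43 running on for over 100 bases, and which of these models the authors counted is not given in the sources used here.

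The bases just before the element differed between the counted genes. The following 30-base stretches end with the stem-loop in capitals.

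Hist1h2ap: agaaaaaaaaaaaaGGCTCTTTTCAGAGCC

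Hist1h2ao: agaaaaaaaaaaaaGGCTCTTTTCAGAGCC

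Hist2h2aa1: cgagctcctaaaaaGGCTCTTTTCAGAGCC

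Hist1h2ab: ttaaccaaaacaaaGGCTCTTTTCAGAGCC

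Hist1h1e: cccaacaacccaaaGGCTCTTTTCAGAGCC

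Hist1h4h: cctacaaaaccaaaGGCCCTTTTCAGGGCC

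These lie in GRCm38 at chr13:21833029-21833058 (minus strand) for Hist1h2ap, chr13:21810884-21810913 (plus) for Hist1h2ao, chr3:96246018-96246047 (plus) for Hist2h2aa1, chr13:23751558-23751587 (plus) for Hist1h2ab, chr13:23621782-23621811 (minus) for Hist1h1e and chr13:23531444-23531473 (plus) for Hist1h4h. All are in 3′ untranslated regions of genes whose GENCODE model has 1 exon. Hist1h2ap and Hist1h2ao carry a run of 12 A that touches the stem-loop. A run of at least 12 A within 100 bases after the stop codon was found in these 2 genes alone among the 54, and in 82 of the 20952 protein-coding genes (0.391%). A longer run, 15 A, lies in Hist1h2ac, 856 bases after the stop codon, and that gene had a mean of 11.5 counts. The part of these runs in the counts was not tested.

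**Figure D1:**
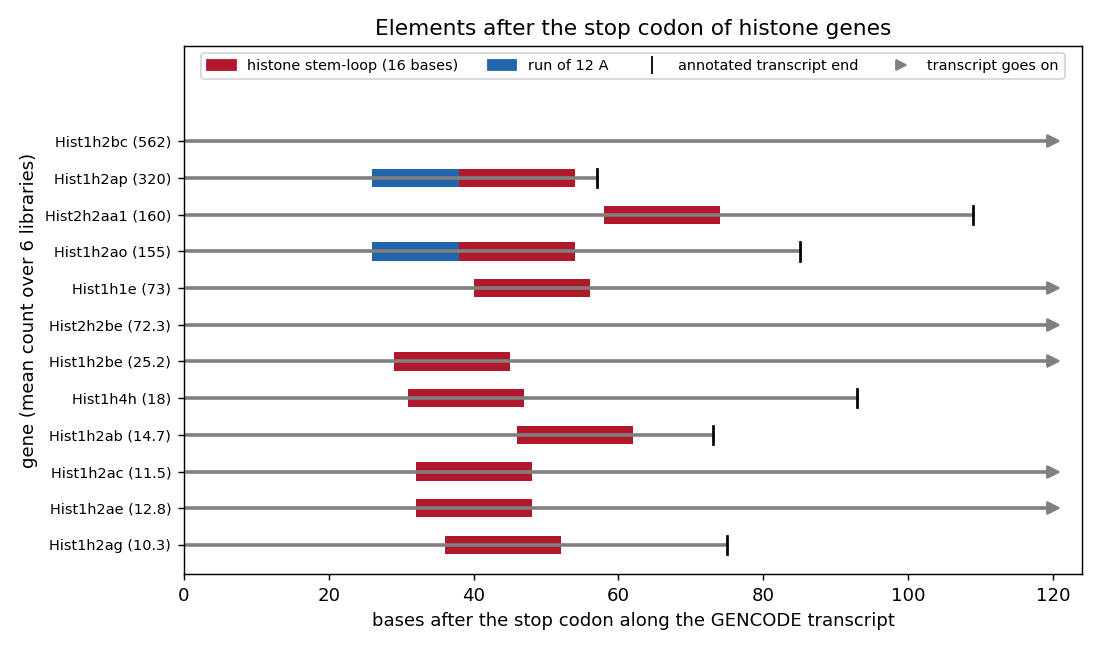
Elements in the first 120 bases after the stop codon (horizontal axis, bases along the GENCODE transcript) of 12 histone genes, with the mean count over 6 libraries in brackets. Red boxes are the stem-loop, blue boxes the runs of 12 A in Hist1h2ap and Hist1h2ao, black ticks annotated transcript ends, and grey arrows transcripts that go on; Hist1h2bc and Hist2h2be show no stem-loop.

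Histone reads were few and came from a handful of genes. The 68 genes together took 1520, 1688 and 1644 counts under the WAS label and 1936, 1651 and 1779 under the control label, or 0.0151% to 0.0184% of each library's total. The groups overlapped in this total. A total of 8 genes with a mean of at least 20 counts held 89.6% of all histone counts, while 10 genes had 0 counts in all 6 libraries and 33, these 10 included, never passed 3 counts. Only 23 of the 68 passed the filter on low values, an average of 2 or more for log2(quantile-normalized count + 1). The 45 others held 2.05% of the histone counts, with at most 10 in a library, for Hist1h4n in control replicate 3.

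**Figure D2:**
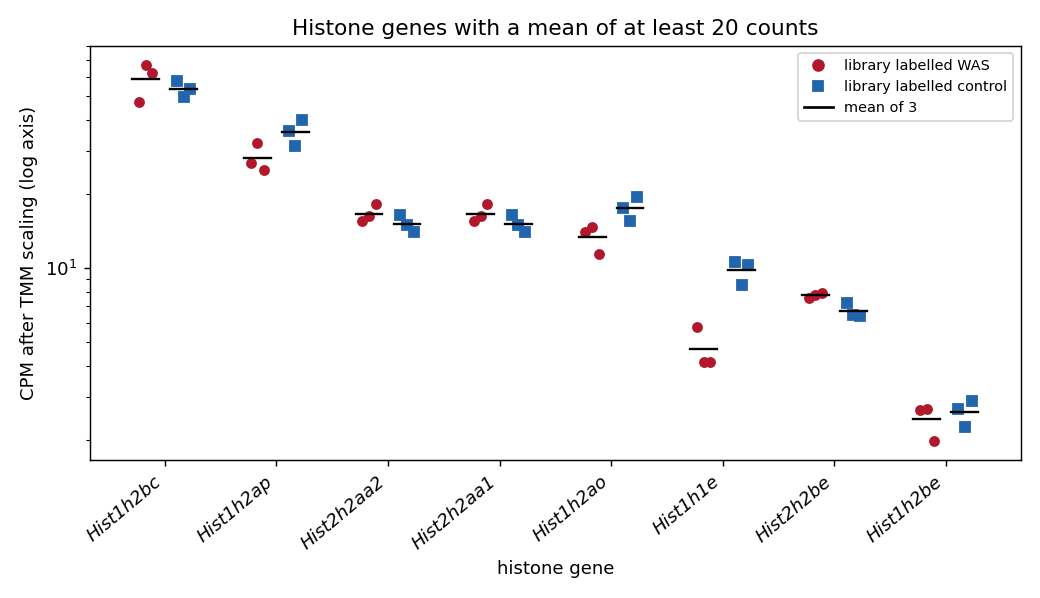
CPM, the counts relative to the TMM-scaled library total (vertical axis, log scale), of the 8 histone genes with a mean of at least 20 counts, 3 libraries labelled WAS (red circles) and 3 labelled control (blue squares), with lines at the means. Hist1h1e is the gene with the widest separation, 4.70 against 9.78 CPM, and Hist2h2aa1 and Hist2h2aa2 show the same values because their counts are identical.

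The classes were represented very unequally. H2A genes held 53% and H2B genes 39.7% of the histone counts, H1 genes 4.98%, H4 genes 2.11% and H3 genes 0.245%. All 12 H3 genes stayed at 3 counts or fewer in every library, with 25 counts in total over the 6 libraries, and none was tested. In H2B and H1 a single gene took most of the class, Hist1h2bc with 83.1% and Hist1h1e with 86.1%. Hist1h4h supplied 50% of the H4 counts. Counts are of reads near transcript ends and are not divided by length, so they rank reads, not RNA molecules.

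**Figure D3:**
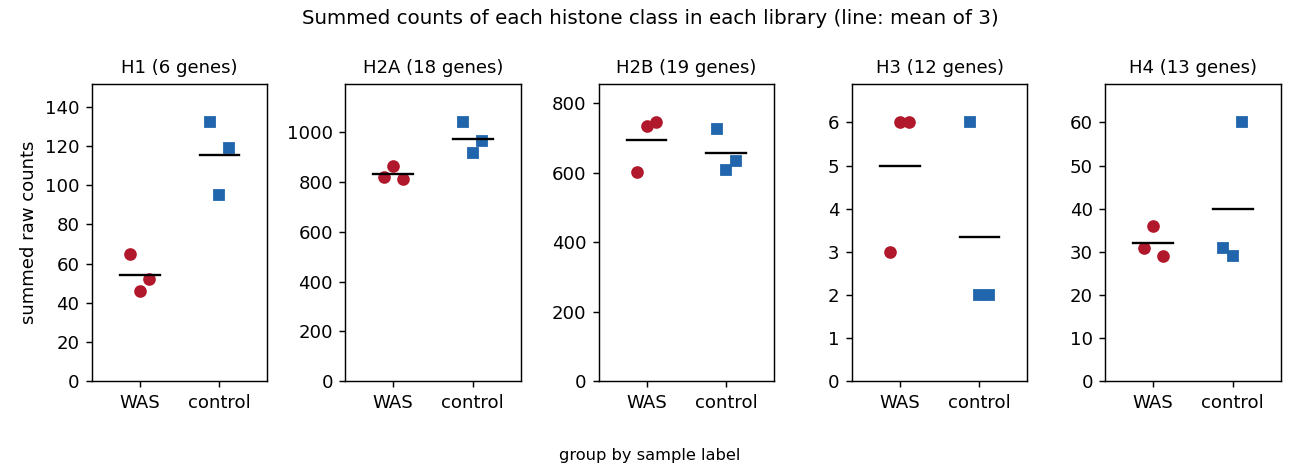
Summed raw counts of each histone class (vertical axes, each from 0) in the 3 libraries labelled WAS and the 3 labelled control, with lines at the means. The H1 sums of 46 to 65 lie below the control sums of 95 to 132, the raw H2A sums of 812 to 864 below 917 to 1040, although the H2A groups overlap after TMM scaling (80.24 to 92.35 against 89.65 to 98.98 CPM), and the other classes overlap.

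Because the authors counted multiple alignments, a read from a stretch that several copies share could enter each of them, and the copies were therefore compared over every window of 75 bases, the read length. The coding stretch found in the highest number of genes, 75 bases long, is shown for H2A and for H1.

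H2A, in 13 genes: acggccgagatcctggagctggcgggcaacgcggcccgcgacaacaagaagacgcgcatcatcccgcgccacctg

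H1, in 3 genes: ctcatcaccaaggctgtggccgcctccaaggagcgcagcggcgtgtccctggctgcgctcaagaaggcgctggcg

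The H2A stretch is at chr13:23751310-23751384 (plus strand) in Hist1h2ab and the H1 stretch at chr13:23738975-23739049 (plus strand) in Hist1h1c. The corresponding stretch was common to 13 of 19 H2B genes, all 12 H3 genes and 10 of 13 H4 genes. The 13 H2A genes with the identical stretch had mean counts from 3.67 (Hist1h2af) to 319.5 (Hist1h2ap), and the 13 H2B genes from 0 to 561.5 (Hist1h2bc). Genes that hold the same stretch were thus far from equal in their counts. Because reads of these libraries come from just before a stretch of A, this does not show how shared coding reads were counted.

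**Figure D4:**
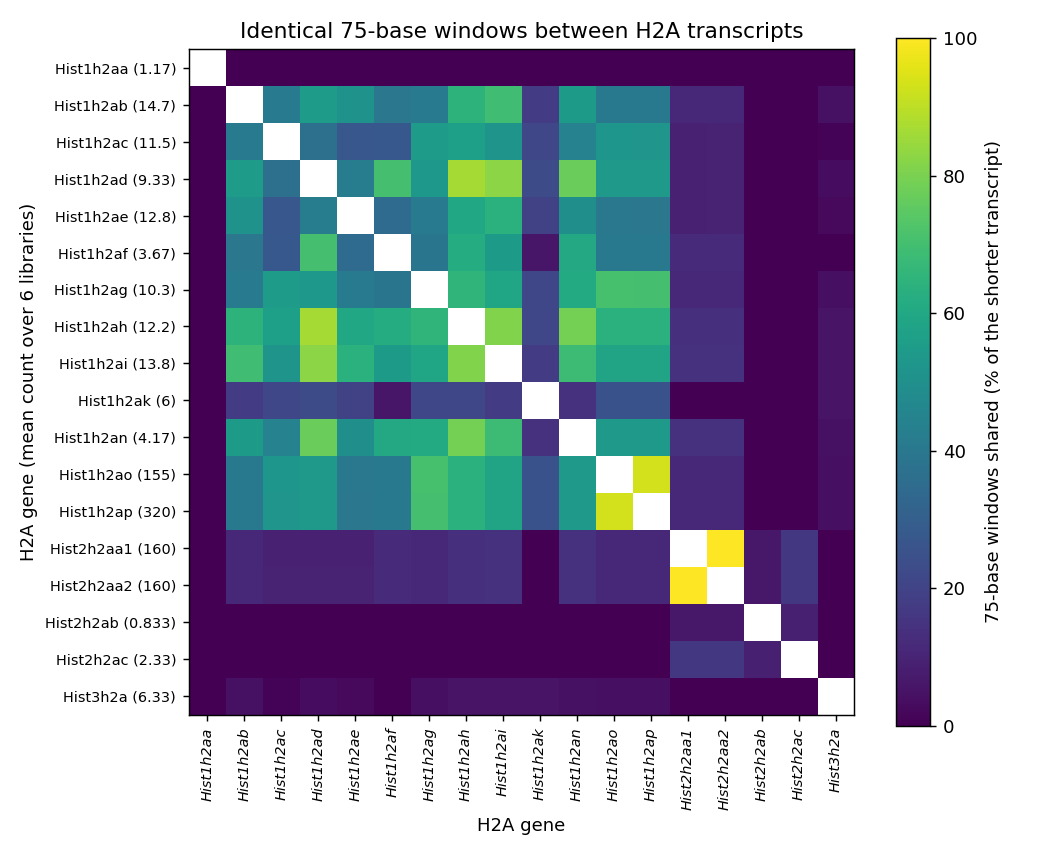
Percentage of 75-base windows shared between each pair of the 18 H2A transcripts (colour, relative to the shorter transcript), with mean counts in brackets. The brightest cells are Hist2h2aa1 with Hist2h2aa2 (100%) and Hist1h2ao with Hist1h2ap (93.1%), while the 11 Hist1 genes linked by sharing at least 50% of windows had mean counts from 3.67 to 319.5.

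Some copies cannot be told apart. Hist2h2aa1 and Hist2h2aa2, which lie close together on chromosome 3, both had 159, 152 and 184 counts under the WAS label and 173, 153 and 137 under the control label. The counts of Hist2h3c1 and Hist2h3c2 were also equal in every library, at 1, 1 and 1 against 0, 0 and 0. These genes share 62.6% of the windows of the shorter transcript. Hist1h3e and Hist1h3h, which share 33.8%, had equal counts too, so equality at so few counts says little. Hist1h2ao and Hist1h2ap shared 378 windows, of which 78 were in no other histone gene, and 57 of these reached past the stop codon. Their counts were not equal, and the ratio of Hist1h2ao to Hist1h2ap lay between 0.455 and 0.524 in the 6 libraries. They are read together, since reads may be shared. Predicted genes are annotated on the opposite strand at every H2A gene, such as Gm44466 at Hist1h2ap and Gm19658 at Hist1h2ao. Whether counting used the strand is not given in the sources used here.

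Among the 23 tested histone genes, edgeR's quasi-likelihood test over all 15239 genes called 3 at an unadjusted p under 0.05, which is 13% against 7.24% of all genes tested. The 3 were Hist1h1e, Hist1h2ap and Hist1h2ao, all lower in WAS-labelled libraries (3.4% of all genes), and the latter pair share sequence. None was higher at that p (3.85% of all genes). By the study's criteria, a fold change of at least 1.5 with an unadjusted p under 0.05, 1 histone gene was lower, against 0.676% of all genes, and 0 were higher, against 1.82%, or 2.49% for both directions. The 1 gene lower by these criteria, Hist1h1e, became 2 without WAS replicate 2, when Hist1h2ai was added, and 2 without control replicate 2, when Hist1h1c was added. No gene, histone or other, had an adjusted p under 0.05 (Benjamini-Hochberg), the smallest being 0.477. At the same threshold DESeq2 called 22 genes over the whole table and edgeR's exact test 31, of which 0 and 1 were histone genes. Leaving out WAS replicate 2 gave 484 such genes with edgeR's quasi-likelihood test, 0 of them histone genes. The 3 histone genes past the unadjusted p became 1 without WAS replicate 3, and likewise without control replicate 1 or 3. The log2 fold change was below 0 for 16 of the 23, against 49.8% of all genes, with a median of -0.30 against 0.00088. Without WAS replicate 2 this median was -0.46. Many of the 16 are H2A copies that share windows, so they are not 16 separate measurements.

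**Figure D5:**
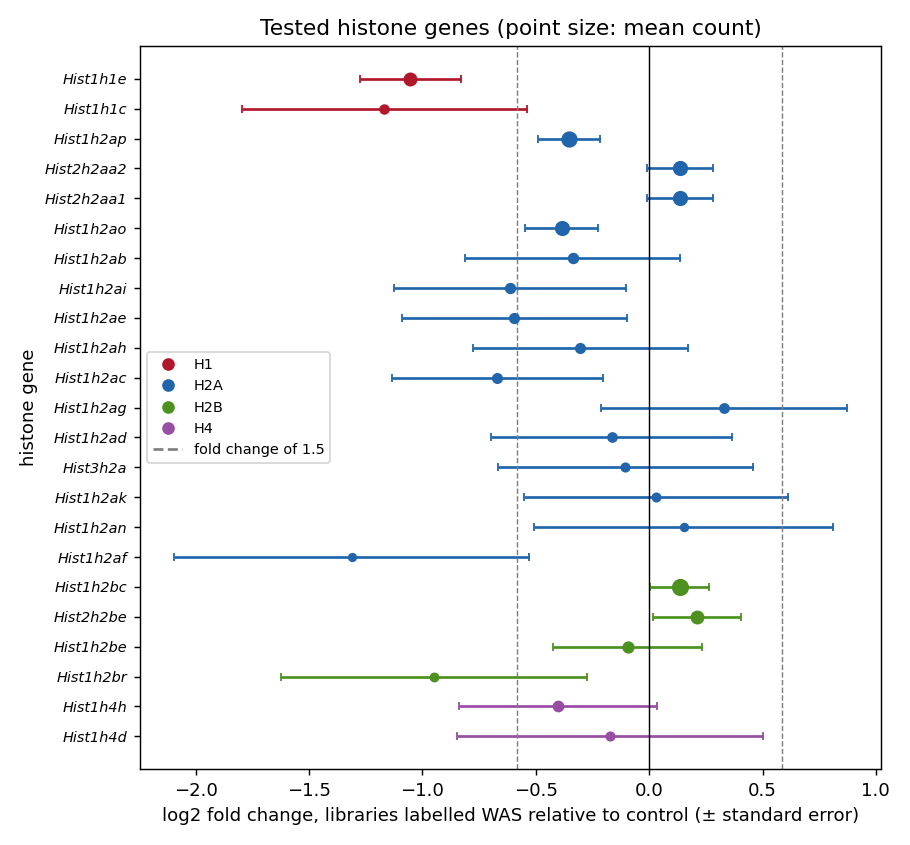
Log2 fold change (horizontal axis, libraries labelled WAS relative to control, bars are standard errors of the edgeR fit) of the 23 tested histone genes, coloured by class, with point size following the mean count. Hist1h1e lies beyond the dashed line at a fold change of 1.5 with a short bar, whereas the other genes beyond that line, such as Hist1h1c and Hist1h2af, have few counts and long bars.

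Hist1h1e encodes the linker histone H1.4 (gene at chr13:23620629-23622558, minus strand, GENCODE). WAS-labelled replicates 1, 2 and 3 held 59, 39 and 42 reads of it, and the control replicates 111, 87 and 100. Every library labelled WAS lay below every library labelled control, a separation in this direction seen for 5.56% of all genes tested. After TMM scaling the means were 4.70 ± 0.936 CPM (SD, n = 3) for WAS and 9.78 ± 1.11 CPM (SD, n = 3) for control. The log2 ratio of WAS to control was -1.05 ± 0.22 (standard error of the fit, as after every log2 ratio below), with an unadjusted p of 0.000595 in edgeR's quasi-likelihood test and 0.477 after Benjamini-Hochberg adjustment. It met the study's criteria in all 13 alternative analyses, but the adjusted p ran from 0.0200 with edgeR's exact test to 0.9998 without control replicate 2. The study had already picked Hist1h1e from these same libraries. Its list gives the gene as higher under water stress, opposite to the direction from the labels.

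The GENCODE models of Hist1h1e and Hist1h2be overlap on the same strand, as upstream exons of alternative Hist1h2be transcripts lie partly or wholly within the 3′ untranslated region of Hist1h1e, and they share 422 windows of 75 bases. In RefSeq, Hist1h1e ends at base 23621777, 5 bases after the stem-loop, and the overlap does not exist. The counts of Hist1h2be, an H2B gene, were 27, 25 and 20 under the WAS label and 28, 23 and 28 under the control label, with overlapping groups and a log2 ratio of -0.094 ± 0.33. The ratio of Hist1h1e to Hist1h2be was 2.19, 1.56 and 2.10 under the WAS label and 3.96, 3.78 and 3.57 under the control label. The groups separated in the row of Hist1h1e and overlapped in that of Hist1h2be. How reads from the shared windows were assigned to these rows was not tested.

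The other linker histone genes had few reads. Hist1h1c, the gene of H1.2, had 3, 7 and 4 counts under the WAS label and 16, 5 and 12 under the control label. The groups overlapped, and the log2 ratio of -1.17 had a standard error of 0.63. Without control replicate 2 it was -1.51, with an unadjusted p of 0.0328 by edgeR's test. Hist1h1d reached at most 4 counts, and so did Hist1h1a and Hist1h1b, which are best known from dividing cells. The testis gene Hist1h1t was at 0 in all 6 libraries.

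Hist1h2ap and Hist1h2ao, the 2 H2A genes with the run of A before the stem-loop, were the most counted genes of their class in the Hist1 cluster. Hist2h2aa1 and Hist2h2aa2, whose longest run is 5 A, each had a mean of 159.67 counts, beside 154.67 for Hist1h2ao. Hist1h2ap had 273, 302 and 253 counts under the WAS label and 378, 321 and 390 under the control label, with means of 28.0 ± 3.80 CPM (SD, n = 3) and 35.8 ± 4.33 CPM (SD, n = 3). The raw counts did not overlap, but after scaling WAS replicate 2 lay above control replicate 2. Its log2 ratio was -0.35 ± 0.14 (standard error), with an unadjusted p of 0.0238 in edgeR's test and 0.625 after adjustment.

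Hist1h2ao had 143, 138 and 115 counts against 184, 159 and 189, with no overlap, a separation in this direction seen for 5.56% of all genes tested. The log2 ratio of Hist1h2ao was -0.39 ± 0.16 (standard error), where edgeR gave an unadjusted p of 0.0342 and an adjusted p of 0.656. Both lay under a fold change of 1.5. The unadjusted p of Hist1h2ap stayed under 0.05 in 9 of 13 alternatives and that of Hist1h2ao in 8, and the largest values, 0.104 for Hist1h2ap without control replicate 3 and 0.129 for Hist1h2ao without WAS replicate 3, came from leaving out 1 library. Without these 2 genes the 16 other H2A genes summed to 403, 424 and 444 counts under the WAS label and 478, 437 and 385 under the control label, and the groups overlapped. The raw sums of the whole H2A class did not overlap, but after scaling WAS replicate 2 (92.35 CPM) lay above control replicate 2 (89.65 CPM).

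The remaining H2A genes varied without separating the groups. Hist2h2aa1 and Hist2h2aa2, with the counts given above, had a log2 ratio of 0.14 ± 0.14. The 11 other tested genes had means of 3.67 to 14.7 counts and log2 fold changes between -1.31 (Hist1h2af, standard error 0.78) and 0.33 (Hist1h2ag, standard error 0.54). Within them Hist1h2ai, which met the study's criteria without WAS replicate 2 (log2 ratio -1.27), had 7, 18 and 7 counts against 18, 13 and 20, and Hist1h2ac 7, 11 and 8 against 15, 17 and 11. The groups overlapped in both genes. Hist3h2a, the H2A gene on chromosome 11, had 4, 7 and 7 counts against 7, 8 and 5.

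H2B reads came mainly from Hist1h2bc and Hist2h2be, the most counted genes without the stem-loop letters in the 3′ untranslated region of their GENCODE transcript, which was searched over its whole length. The transcript of Hist1h2bc joins 2 exons over chr13:23684199-23692908 (plus strand), so that nearly all of its 3′ untranslated region lies in the downstream exon, and that of Hist2h2be (chr3:96221119-96223738, plus strand) runs for 2192 bases beyond the stop codon and has the poly(A) signal AATAAA within its last 50 bases. This signal was found there in 14 of the 54 histone genes with an untranslated region and in 61.5% of all protein-coding genes with one.

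Hist1h2bc had 482, 628 and 627 counts under the WAS label and 603, 506 and 523 under the control label. WAS replicate 1 was the lowest of all 6 libraries, and the log2 ratio was 0.13 ± 0.13. Without that library it was 0.27, with an unadjusted p of 0.0276 by edgeR's test. Hist2h2be had 77, 73 and 80 counts against 76, 66 and 62, a log2 ratio of 0.21 ± 0.19. After scaling its libraries labelled WAS all lay above those labelled control, a separation in this direction seen for 6.12% of all genes tested. Hist1h2br had 5, 2 and 4 counts against 9, 3 and 10. It shares 99.8% of its windows with other rows, above all its copy Hist1h2bq, and 13 of the 19 H2B genes never passed 3 counts.

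Only Hist1h4h and Hist1h4d of the H4 genes were tested. Hist1h4h had 16, 13 and 17 counts under the WAS label and 12, 21 and 29 under the control label, a log2 ratio of -0.40 ± 0.44, and Hist1h4d had 5, 10 and 3 against 8, 3 and 10. The groups overlapped in both. Without control replicate 3 the H4 sum, 0.816 times as high under the WAS label, became 1.12 times as high.

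On the lists of genes that make, process or replace these mRNAs, 0 genes had an unadjusted p under 0.05, against 7.24% of all genes tested, a share at which lists of this length would hold few calls. Of 28 listed genes of histone mRNA 3′ end processing, 23 were tested and 12 of these had a log2 ratio below 0, against 49.8% of all genes. Slbp, whose protein binds the stem-loop, had 90, 59 and 92 counts against 75, 84 and 77, and Npat, the coactivator of histone gene transcription, 357, 295 and 374 against 389, 345 and 346. Among 11 tested replication-independent histone genes, which have ordinary poly(A) tails, 0 passed and the median log2 fold change was 0.055. Their summed level was 669 to 715 CPM under the WAS label and 660 to 676 CPM under the control label, beside means of 164 and 176 CPM for all 68 cluster genes, without correction for length. H1f0, the linker histone of cells at rest, had 657, 555 and 627 counts against 726, 668 and 576 and a log2 ratio of -0.060 ± 0.095. Of 18 tested chaperones and assembly factors 0 passed.

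Of 31 tested genes of DNA replication and the cell cycle, 2 had an unadjusted p under 0.05, both lower under the WAS label, a share near the 7.24% of all genes tested and so no result about the list. Top2a, the topoisomerase of dividing cells, met the study's criteria with 23, 31 and 26 counts against 47, 35 and 53 and a log2 ratio of -0.71 ± 0.30 (edgeR adjusted p of 0.670). E2f1, a transcription factor of S phase entry, had 96, 118 and 76 counts against 185, 151 and 114 and a log2 ratio of -0.58 ± 0.22. Mki67 had 12, 23 and 21 against 42, 18 and 21. The median of the list was -0.090, and 17 of the 31 genes were below 0.

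Of 8 neuronal marker genes, 4 were lower under the WAS label at an unadjusted p under 0.05 (Nrgn, Syt1, Rbfox3 and Slc17a7, against 3.4% of all genes). The groups overlapped for Nrgn and for the 4 others, of which Tubb3 (-0.012), Gad1 (-0.047) and Stmn2 (-0.055) had log2 ratios near 0 and Snap25 one of -0.26. The summed level of the 8 was 8891 to 10980 CPM in those libraries against 11350 to 13160 CPM under the control label. Of 8 astrocytic genes 3 were higher at that p (Aldoc, S100b and Aqp4, against 3.85% of all genes), with summed levels of 4602 to 4756 CPM and 4559 to 4719 CPM that overlapped. Of the other lists, 1 of 8 oligodendrocyte precursor genes was higher (Bcas1), 1 of 10 genes of neural progenitors and neuroblasts was lower (Tbr1), and 0 passed among 8 microglial, 8 endothelial, 8 oligodendrocytic and 5 tested erythroid genes. The log2 ratio was above 0 for all 5 erythroid genes (median 0.355, summed levels of 1294 to 2179 CPM under the WAS label and 1191 to 1606 CPM under the control label) and below 0 for 7 of 8 microglial genes (median -0.144, 307.5 to 373.9 CPM and 336 to 386.9 CPM). The groups overlapped in both sums. Th, on the list for cerebellum and olfactory bulb, was higher, with 75, 43 and 146 counts against 13, 19 and 34. The part of these values in the values of Hist1h1e, Hist1h2ap and Hist1h2ao was not tested, and in bulk tissue fewer cells of a type and less RNA per cell cannot be told apart.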

How the data were processed

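RNA from 6 forebrain samples was measured by QuantSeq 3′ mRNA-Seq. The deposited values are raw read counts per gene symbol, which the authors made with Bowtie2 and Bedtools from unique and multiple alignments. The submitters' notes name mm10, and versions and annotation are not given in the sources used here. The authors' quantile normalization is not in these counts. Of 23282 rows, 44 repeat a symbol and were kept.

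Counts were scaled by TMM and tested with edgeR 4.0.16 in R 4.3.3 (quasi-likelihood test, two-sided, Benjamini-Hochberg adjustment) on the 15239 rows with a mean log2(quantile-normalized count + 1) of at least 2. Standard errors were derived from the fit as log2 ratio over root F. The fit was tested on simulated data. Alternatives were DESeq2 1.42.0, limma 3.58.1 on quantile-normalized values, edgeR's exact test, scaling by library totals, 2 other filters, the replicate number as a block, each of 6 libraries left out and, for class sums, copies counted once. The labels do not say whether replicate numbers pair animals, and the numbers were not taken as a pairing. Total counts of 9248520 to 10502029 per library set the counting precision, and reads carry no molecular identifiers.

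Sequences were read from GENCODE M21 transcripts (the longest coding model of each symbol, its windows compared with all transcripts of other symbols) with Python 3.11.15, and gene ends from a RefSeq table of GRCm38.p6. Histone genes named are those with a mean of at least 20 counts, with an unadjusted p under 0.05, or with near-identical copies and a mean of at least 5 counts. Others, such as Hist1h1c, Hist1h2af and Hist1h4d, were named after their values were seen, and not every context gene that the rule gives is reported. The genes, lists and tests were chosen with earlier results of these data known.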

Additional observations from a re-analysis of the deposited data

How the results depend on the processing

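Over 13 alternatives, Hist1h1e met the study's criteria each time, with log2 fold changes from -1.23 to -0.97. Of 219 comparisons for named histone genes, 215 kept direction and side of the criteria. Hist1h2ai passed them without WAS replicate 2 (-1.27). Hist1h2ad turned positive without WAS replicate 3 (0.051) or control replicate 3 (0.016), in a range of -0.44 to 0.051 over the left-out libraries, as did Hist1h2be without WAS replicate 3 (range -0.19 to 0.033).

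With each library left out, the histone genes lower by the criteria numbered 1 to 2 (2 without WAS replicate 2, with Hist1h2ai, or without control replicate 2, with Hist1h1c), those past an unadjusted p of 0.05 between 1 and 4 (1 when WAS replicate 3, or either of control replicates 1 and 3, was dropped), and all genes past an adjusted p of 0.05 between 0 and 484 (484 without WAS replicate 2). The replicate block gave 49 such genes, DESeq2 22 and edgeR's exact test 31, of which 1 was a histone gene, Hist1h1e. Genes of the context lists with an unadjusted p under 0.05 numbered 12, with 7 to 24 over the left-out libraries and 19 with the replicate block.

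Class medians ranged over the left-out libraries from -1.33 to -0.91 for H1, from -0.46 to -0.19 for H2A (WAS replicate 2 and control replicate 2 dropped, respectively), from -0.068 to 0.063 for H2B and from -0.56 to 0.081 for H4, and the median of all 23 tested genes from -0.46 (without WAS replicate 2) to -0.20. The H2B median was 0.14 with a filter at a mean of 10 counts, and the H4 median -0.77 with no filter beyond 1 count. Ratios of class sums between the groups moved by less than their spread between libraries, including with copies counted once (H2A from 0.879 to 0.874), although the H4 ratio of 0.816 turned to 1.12 without control replicate 3. Of 338 counts for single context lists, 286 were within 1.5 times the reported count. The cause of these shifts was not tested. Deviations of same-numbered libraries correlated at 0.0784, 0.0987 and 0.0928, each the highest for its library but under 0.1, so the block is not taken as a pairing, and it changed no call of a histone gene. Exact test and block give no separate class sums. Depth limits the tested histone genes with a mean under 10 counts, whose standard errors were all above 0.5 on the log2 scale.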

Other observations

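The ratio of Hist1h2ap to Hist1h2bc counts was 0.566, 0.481 and 0.404 under the WAS label but 0.627, 0.634 and 0.746 under the control label, a contrast chosen after the values were seen and given without a test. The groups of Hist1h2bc by itself overlapped. Rows with at most 3 counts in 5 libraries and a higher count in 1 had that count in control replicate 3 for Hist1h4n (10), its near-identical copy Hist1h4m (6), the testis gene Hist1h2aa (6) and Hist1h1b (4), in WAS replicate 2 for Hist1h4i (8), control replicate 1 for Hist1h4b (6), WAS replicate 3 for Hist1h1a (4), WAS replicate 1 for Hist3h2ba (4), WAS replicate 2 for Hist1h4c (4), control replicate 1 for Hist1h1d (4) and control replicate 2 for Hist2h2ac (4). Hist1h4m and Hist1h4n share 89.0% of the windows of the shorter transcript, and how many reads they have in common was not tested.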
